A study of Mus musculus with 63 samples.

Results

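Npas4, Bdnf, Ntrk2, Nptx2, Homer1 and Inhba are 6 genes of activity-dependent synaptic plasticity, and their values were followed across strain, drug and conditioning in mouse dorsal hippocampus. They were taken from the gene count table by symbol, through the GENCODE M21 names of its Ensembl identifiers, and make up 6 of its 55401 genes. All 6 passed the filter on low counts, which left 19974 genes for testing. RNA came from adolescent mice of 2 inbred strains, 32 libraries from DBA/2J and 31 from C57BL/6J. The animals had been given ethanol at 1.5 g/kg (EtOH, 32 libraries) or saline (31), and had undergone fear conditioning (FC, 31) or no fear conditioning (noFC, 32). Males gave 31 libraries and females 32. The 16 combinations held 4 libraries each, except for fear-conditioned C57BL/6J males given saline, with 3. The interval between injection, conditioning and dissection is not given in the sources used here, nor is what the noFC animals experienced in place of conditioning.

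Neuronal firing lets calcium into the cell, and the resulting signals switch on a set of genes that alter synapses over the following hours. Npas4 encodes a transcription factor of this response that is found mainly in neurons, and Bdnf, which encodes a secreted neurotrophin, is one of its reported targets. BDNF acts on the receptor tyrosine kinase TrkB, the product of Ntrk2. Nptx2 encodes a secreted pentraxin that gathers AMPA receptors at synapses, Homer1 a scaffold of the postsynaptic density, and Inhba the beta A subunit of activin, a growth factor of the TGF-beta family.

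The count total per library lay between 21027659 and 61631742, with a median of 26379948. Of the markers used to check the tissue, Wfs1, of CA1 pyramidal cells, was at 116 to 272 CPM (counts scaled to the library totals) and Prox1, of dentate granule cells, at 84.4 to 202 CPM over the 63 libraries. The sum of 10 choroid plexus markers varied far more, between 34.9 and 12450 CPM. In such tissue, fewer cells of a type and less RNA per cell cannot be told apart. The title of each library carries a number, whose meaning the labels do not state. The numbers are consecutive without a gap. They were divided here into 2 runs of 8, where the letters of the drugs change as described below. The runs are called the first and second round, and values within each are given beside the main results. The labels name no such rounds, and whether they were separate batches is not known. Titles end in a letter from A to D, likewise unexplained. FC libraries carried A or C and noFC libraries B or D, so conditioning and letter went together throughout. Letters A and B marked saline among first-round libraries but EtOH among second-round ones, while C and D marked the other drug. EtOH and saline thus never shared a letter within a round. An effect of the letter could not be separated from conditioning, or from ethanol within a round, and was not tested.

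Reference promoters are shown for the genes whose level or transcripts differed between the strains and whose windows held a motif tied to activity-dependent transcription. RefSeq sequence on GRCm38.p6 was available for 5 of the 6 genes, and not for Nptx2. The 250 bases before each RefSeq start were searched on both strands. The motifs were the full cAMP response element (TGACGTCA), its shorter core (TGACG) and the AP-1 site (TGANTCA). The core bound by NPAS4 (TCGTG) and the CArG box of serum response factor were searched for as well. Capitals mark the TGACG and TCGTG cores, on either strand. All lines read 5′ to 3′ on the strand of the gene.

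The Npas4 stretch (chr19:4990129-4990158, minus strand) holds a pair of TGACG cores on opposite strands, reading away from each other, before the RefSeq start that is also the start of transcript Npas4-202. It lies within the first exon of the longer transcript Npas4-201.
Npas4: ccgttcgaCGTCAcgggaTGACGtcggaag
The window before Bdnf exon I (chr2:109674450-109674699, plus strand) holds a pair of TCGTG cores, both in reverse.
Bdnf exon I: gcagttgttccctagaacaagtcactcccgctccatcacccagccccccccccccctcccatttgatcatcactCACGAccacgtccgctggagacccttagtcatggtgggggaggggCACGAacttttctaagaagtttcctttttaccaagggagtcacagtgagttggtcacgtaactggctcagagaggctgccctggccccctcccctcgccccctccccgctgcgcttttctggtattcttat
The window before Bdnf exon IV (chr2:109692186-109692435, plus strand) holds the TGACG core once, in reverse, and TCGTG at a pair of positions.
Bdnf exon IV: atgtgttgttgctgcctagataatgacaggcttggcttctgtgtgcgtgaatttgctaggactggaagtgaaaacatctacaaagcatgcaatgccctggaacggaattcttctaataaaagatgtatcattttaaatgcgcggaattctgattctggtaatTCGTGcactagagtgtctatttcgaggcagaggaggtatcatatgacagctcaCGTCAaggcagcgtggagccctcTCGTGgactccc
The window before the first RefSeq start of Homer1 (chr13:93303507-93303756, plus strand) holds TGACG at 3 positions, all within the 56 bases before the start. That start is the start of transcript Homer1-207. The more abundant Homer1-204 and Homer1-203 start further downstream, at 93304495 and 93304799, and the windows before their starts were not searched.
Homer1: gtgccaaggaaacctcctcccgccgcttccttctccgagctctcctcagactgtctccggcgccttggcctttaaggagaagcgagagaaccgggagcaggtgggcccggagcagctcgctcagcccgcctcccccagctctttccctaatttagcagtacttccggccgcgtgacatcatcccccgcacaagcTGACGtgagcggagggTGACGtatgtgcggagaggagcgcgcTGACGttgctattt

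Matches to these letters are common. Of 32851 promoters of the same length, 17.8% held TGACG and 13.3% held TCGTG, against 1.55% for the full element, 6.75% for AP-1 and 1.47% for the CArG box. The full element and the CArG box were not found in any window of the 5 genes. AP-1 was found once, before the start of Bdnf exon III. The windows of Inhba and Ntrk2, the second Homer1 start and the other RefSeq starts of Bdnf held none of the motifs. The starts of Bdnf exon II and of exon VI, the source of most Bdnf transcript counts, were not among the RefSeq starts. Their promoters were not searched. The sequence is that of the reference strain C57BL/6J, and DBA/2J variants in it were not examined.

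Levels between genes were compared per kilobase of annotated exon, as CPM per kb. This length counts every annotated exon of a gene, 11976 bases for Homer1, although its transcripts Homer1-204 and Homer1-202 have 5713 and 4287. For Nptx2 it equals the transcript length of 2536 bases. The order of the genes therefore depends on this choice of length and is not an order of transcript abundance. Ntrk2 was highest at 28.7 ± 1.77 CPM per kb (SD, n = 63 libraries), followed by Nptx2 at 16.7 ± 2.27, Homer1 at 12.7 ± 2.20, Bdnf at 8.41 ± 1.52, Npas4 at 4.89 ± 1.13 and Inhba at 1.87 ± 0.388. Ntrk2 also varied least, with the highest library 1.35-fold above the lowest, against 2.86-fold for Inhba and 2.49-fold for Npas4. The plot of gene levels by library shows the strain difference of Npas4 and Bdnf and the overlap of most other groups.

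**Figure D1:**
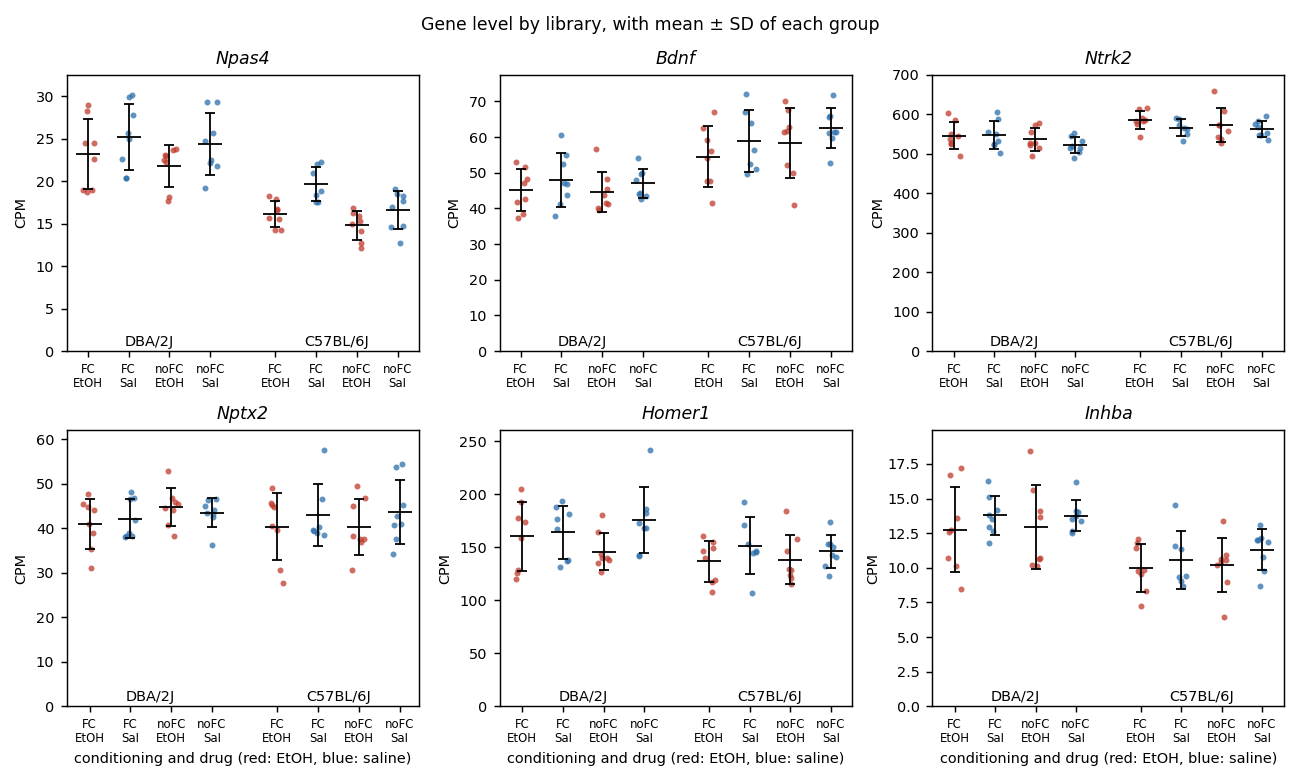
CPM (vertical axis, starting at 0) of each gene in every library, by conditioning and drug within DBA/2J (left) and C57BL/6J (right). Points are libraries (red EtOH, blue saline) and bars the mean ± SD. Npas4 is higher and Bdnf lower in all 4 DBA/2J groups than in their C57BL/6J counterparts.

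The first comparison set all DBA/2J libraries against all C57BL/6J ones, with every treatment weighted equally. Of the 6 genes, 5 were called at an adjusted p under 0.05 (edgeR's quasi-likelihood test, adjusted over all genes), with Npas4, Inhba and Homer1 higher in DBA/2J and Bdnf and Ntrk2 lower. Across all genes tested 50% were called (25.5% higher and 24.5% lower), so a call between these strains is not unusual. P-values measure the spread between libraries, since the labels do not say that each came from a separate animal. They also treat libraries that share a title number as independent, which is not known.

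Npas4 (ENSMUSG00000045903, chromosome 19, 4984355 to 4990316) ranged from 17.7 to 30.1 CPM (median 23.1) in DBA/2J libraries, against 12.1 to 22.2 CPM (median 16.7) in C57BL/6J libraries. Every DBA/2J library stood above the C57BL/6J median, and 22 of 32 stood above the highest C57BL/6J library. The log2 difference was 0.50 (SE 0.05, adjusted p = 3.8e-13), or 1.42-fold. It was 0.54 in the first round and 0.47 in the second, and the mean was higher in DBA/2J in 8 of 8 combinations of sex, conditioning and drug (log2 ratios of 0.36 to 0.69). Of all genes tested, 12% had a larger strain difference in size.

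Bdnf (ENSMUSG00000048482, chromosome 2, 109674700 to 109727007) had the opposite direction. Its level was 37.3 to 60.5 CPM (median 45) in DBA/2J libraries, against 41.0 to 72.1 CPM (median 61.3) in C57BL/6J libraries. All 32 DBA/2J libraries lay below the C57BL/6J median, and 16 of 31 C57BL/6J libraries lay above the highest DBA/2J library. The log2 difference was -0.34 (SE 0.05, adjusted p = 2.7e-08), with -0.31 in the first round and -0.38 in the second. The mean was lower in 8 of 8 combinations.

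Ntrk2 (ENSMUSG00000055254, chromosome 13, 58806569 to 59133970), the receptor gene, was at 489 to 607 CPM (median 530) in DBA/2J libraries, against 527 to 659 CPM (median 573) in C57BL/6J libraries. Most of the 2 ranges overlapped, although 13 DBA/2J libraries fell below the lowest C57BL/6J one. The difference of -0.09 (SE 0.02, adjusted p = 0.00021) was small and the same in sign in 8 of 8 combinations. Ligand and receptor were thus both lower in DBA/2J, Bdnf by more.

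Inhba (ENSMUSG00000041324, chromosome 13, 16011851 to 16031621) was at 8.44 to 18.4 CPM (median 13.6) in DBA/2J libraries, against 6.44 to 14.6 CPM (median 10.6) in C57BL/6J libraries. The ranges overlapped, with 28 of 32 DBA/2J libraries above the C57BL/6J median. The difference was 0.34 (SE 0.06, adjusted p = 9.4e-06), with 0.34 in the first round and 0.33 in the second. Nptx2 (ENSMUSG00000059991, chromosome 5, 144545902 to 144557478) stood at 31.0 to 52.8 CPM (median 44.1) in DBA/2J libraries and 27.8 to 57.7 CPM (median 40.6) in C57BL/6J libraries. Its difference of 0.04 (95% confidence interval -0.05 to 0.13, adjusted p = 0.47) was not called.

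Homer1 (ENSMUSG00000007617, chromosome 13, 93299635 to 93405129) was at 120 to 242 CPM (median 165) in DBA/2J libraries, against 107 to 193 CPM (median 145) in C57BL/6J libraries. Of 32 DBA/2J libraries 18 were above the C57BL/6J median, and the difference was 0.17 (SE 0.06, adjusted p = 0.013). It was 0.14 in the first round, where it was not called (adjusted p = 0.24), and 0.19 in the second (adjusted p = 0.041).

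Markers of dentate granule cells moved with the strain. Of 8 such markers 7 were lower and 1 was higher in DBA/2J, with a median of -0.23, and their summed level was 307 to 693 CPM in DBA/2J libraries, against 441 to 762 CPM in C57BL/6J libraries. C1ql2, a synaptic protein of granule cells, differed by -1.46 (SE 0.05) and Prox1 by -0.29 (SE 0.05). With the mean of these markers as a covariate, the Homer1 difference was 0.03 (adjusted p = 0.84) and no longer called, while that of Nptx2 was 0.24 (adjusted p = 0.0027) and called. The other 4 genes stayed called in the same direction, at 0.44 for Npas4, -0.26 for Bdnf, -0.17 for Ntrk2 and 0.62 for Inhba. What part the dentate share had in these values was not tested, since the markers themselves differ between the strains. Of 12 pyramidal markers 2 were higher and 5 lower, with a median of -0.08. With their mean as a covariate, added after the data had been seen, Nptx2 was called as well, at 0.11 (adjusted p = 0.00044).

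**Figure D2:**
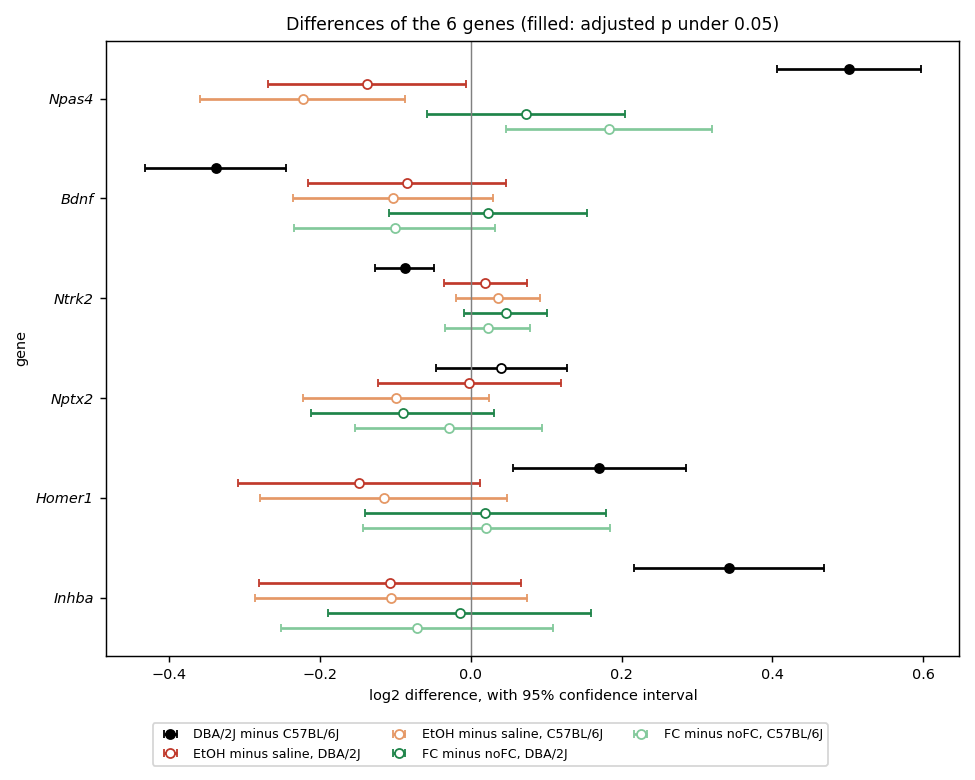
Log2 difference (horizontal axis) of each gene (vertical axis) with its 95% confidence interval for strain, ethanol within each strain and conditioning within each strain. Filled points passed an adjusted p of 0.05. All 5 filled points belong to the strain difference, and the ethanol and conditioning points lie between -0.22 and 0.18.

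The strain comparison was repeated on transcript counts, estimated by the authors per transcript. Of 39 annotated transcripts of the 6 genes 16 were tested for level. A strain difference was called for 8 of the 16, of which DBA/2J had the higher level in 5 and the lower in 3. Over all transcripts 29.8% were called (15.4% higher and 14.5% lower). Within the rounds, each with fewer libraries, 3 of the 16 were called in the first and 4 in the second. The share of all transcripts called within a round is not given here, so nothing about these transcripts is read from the lower counts. Which transcript a read supports is itself an estimate, and effects of DBA/2J variants on that step were not tested.

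Homer1 makes a short form, Homer1a, that ends within an intron and lacks the coiled coil through which the long forms link up. Homer1a is itself an immediate early gene product and competes with the long scaffold. Its transcript Homer1-204, with 186 residues against 354 to 370 for the long ones, was at 31.2 to 109 CPM (median 62.4) in DBA/2J libraries, against 29.1 to 76.7 CPM (median 50.9) in C57BL/6J libraries. The ranges overlapped widely, and the log2 difference was 0.32 (SE 0.11, adjusted p = 0.018). It was 0.27 in the first round (adjusted p = 0.35) and 0.39 in the second (adjusted p = 0.11), called in neither. The 3 long transcripts together averaged 71.1 ± 8.48 CPM in DBA/2J (SD, n = 32) and 70.1 ± 7.39 CPM in C57BL/6J (SD, n = 31). The most abundant long transcript, Homer1-202, differed by 0.07 (SE 0.06, adjusted p = 0.43). Homer1a accordingly made up 38.0% ± 5.51 of Homer1 transcript counts in DBA/2J, against 34.1% ± 4.64 in C57BL/6J (SD, n = 32 and 31). Its usage, the level relative to the other transcripts of the gene, was higher in DBA/2J by 0.34 on the log2 scale (adjusted p = 0.0094, limma's diffSplice), where 16.9% of all transcripts tested for usage were called. With transcripts of any share of their gene kept, the value was 0.28 and no longer called (adjusted p = 0.14). Homer1-207, with 193 residues and an end of its own, was higher by 0.20 (SE 0.07, adjusted p = 0.031). It lost its call within each round, with transcripts of any share kept, and without either library DBA_M_FC_SAL_312 (0.18, adjusted p = 0.053) or library DBA_M_noFC_SAL_312 (0.18, adjusted p = 0.051), both from DBA/2J males given saline.

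Homer1-205 and Homer1-206 end at one site and share most of their sequence, so that the split between them is uncertain. The usage of Homer1-206 differed by -0.65 on the log2 scale (adjusted p = 0.0026), although its level was not called (-0.12, SE 0.23, adjusted p = 0.80). Their sum, called the other short forms here, was 12.5 ± 3.08 CPM in DBA/2J and 10.6 ± 2.36 CPM in C57BL/6J (SD, n = 32 and 31).

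**Figure D3:**
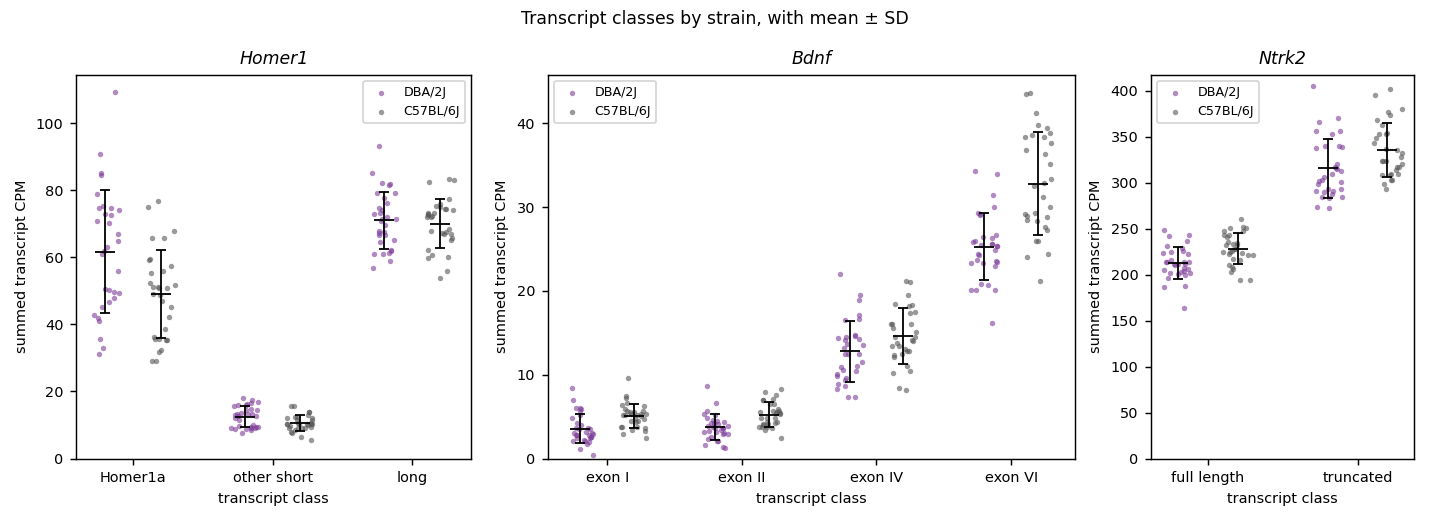
Summed CPM (vertical axes, starting at 0) of transcript classes of Homer1, Bdnf and Ntrk2 in every library, DBA/2J left of C57BL/6J, with mean ± SD. Homer1a is higher in DBA/2J with overlap while the long forms are level, and Bdnf exon VI transcripts are lower in DBA/2J.

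Bdnf transcripts differ in their first exon, each with a promoter of its own, and encode the same mature protein. Transcripts from exon VI made up 55.7% ± 8.10 of Bdnf transcript counts in DBA/2J and 56.4% ± 5.76 in C57BL/6J, and those from exon IV 27.8% ± 6.09 in DBA/2J and 25.1% ± 4.3 in C57BL/6J (SD, n = 32 and 31). The exon VI transcript, Bdnf-205, was at 16.2 to 34.3 CPM (median 25.4) in DBA/2J libraries, against 21.2 to 43.7 CPM (median 32.5) in C57BL/6J libraries. Its difference was -0.37 (SE 0.06, adjusted p = 2e-06). The exon I transcript, Bdnf-201, whose promoter is shown above, differed by -0.52 (SE 0.16, adjusted p = 0.01), with -0.40 in the first round (adjusted p = 0.30) and -0.68 in the second (adjusted p = 0.081), called in neither. It averaged 3.57 ± 1.77 CPM in DBA/2J and 5.10 ± 1.46 CPM in C57BL/6J (SD, n = 32 and 31). The exon IV transcript, Bdnf-209, made from the promoter classically tied to neuronal activity, differed by -0.18 (SE 0.10, adjusted p = 0.17) and was not called. Usage of the 4 Bdnf transcripts tested was not called for strain (adjusted p of 0.26 to 0.85), so a difference between the promoters was not shown.

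Ntrk2 encodes full-length TrkB and a truncated receptor without the kinase domain, which astrocytes carry. Truncated transcripts made up 59.2% ± 3.56 of Ntrk2 transcript counts in DBA/2J and 59.1% ± 3.14 in C57BL/6J (SD, n = 32 and 31), and the full-length ones 40.0% ± 3.56 in DBA/2J and 40.2% ± 3.12 in C57BL/6J. The full-length transcript Ntrk2-201 differed by -0.10 (SE 0.03, adjusted p = 0.0077; -0.10, adjusted p = 0.098, in the first round alone), and the truncated Ntrk2-202 differed by -0.07 (SE 0.03, adjusted p = 0.11). Without library DBA_M_FC_SAL_320, from a conditioned male given saline, the truncated one was called as well (-0.08, adjusted p = 0.043). Their relative usage differed by 0.03 (adjusted p = 0.75). Npas4-201, which encodes the whole protein, followed its gene at 0.53 (SE 0.05, adjusted p = 4e-12).

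The ethanol comparison asked how the genes differed between EtOH and saline within each strain. None of the 6 was called in either strain, beside 0.295% of all genes in DBA/2J and 0.0901% in C57BL/6J (edgeR). At an unadjusted p under 0.05, Npas4 passed in both strains and the other 5 genes in neither, where 8.36% of all genes passed in DBA/2J and 4.22% in C57BL/6J. DESeq2 called none of the 6 either.

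In DBA/2J, Npas4 was at 17.7 to 29.1 CPM (median 22.8) in EtOH libraries, against 19.2 to 30.1 CPM (median 24.9) in saline libraries. In C57BL/6J it was at 12.1 to 18.3 CPM (median 15.6) in EtOH libraries, against 12.8 to 22.2 CPM (median 18.3) in saline libraries. The ranges overlapped in both strains, with 14 of 16 EtOH libraries below the saline median in DBA/2J and 15 of 16 in C57BL/6J. The log2 difference was -0.14 (SE 0.07, adjusted p = 0.58) in DBA/2J and -0.22 (SE 0.07, adjusted p = 0.58) in C57BL/6J. The mean was lower with EtOH in 4 of 4 combinations of sex and conditioning in each strain. The difference between the strains in this response was 0.09 (95% confidence interval -0.10 to 0.27, adjusted p = 1). Within rounds the value was -0.19 and -0.07 in DBA/2J and -0.21 and -0.23 in C57BL/6J, for the first and the second round. A smaller p than that of Npas4 was found for 7.73% of genes in DBA/2J and 0.386% in C57BL/6J.

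The other members were not called either. Bdnf differed by -0.08 (SE 0.07) in DBA/2J and -0.10 (SE 0.07) in C57BL/6J, Homer1 by -0.15 in DBA/2J and -0.12 in C57BL/6J (SE 0.08 each), and Inhba by -0.11 (SE 0.09) in each strain. Bdnf and Homer1 had lower means with EtOH in 4 of 4 combinations in each strain. Nptx2 was at 0.00 in DBA/2J and -0.10 in C57BL/6J (SE 0.06 each), and Ntrk2 at 0.02 in DBA/2J and 0.04 in C57BL/6J (SE 0.03 each). For Bdnf the 95% confidence intervals, -0.22 to 0.05 in DBA/2J and -0.24 to 0.03 in C57BL/6J, leave room for changes in either direction.

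At the transcript level none of the 16 was called for ethanol, beside 0.102% of all transcripts in DBA/2J and 0.0117% in C57BL/6J. Homer1a (Homer1-204) averaged 56.0 ± 18.4 CPM with EtOH and 67.2 ± 17 CPM with saline in DBA/2J (SD, n = 16 each), a difference of -0.26 (SE 0.15, adjusted p = 0.95). In C57BL/6J it averaged 45.3 ± 13.9 CPM with EtOH (SD, n = 16) and 52.9 ± 11.5 CPM with saline (SD, n = 15), a difference of -0.23 (SE 0.15, adjusted p = 1). The long forms averaged 70.9 ± 7.23 CPM with EtOH and 71.3 ± 9.81 CPM with saline in DBA/2J, and 70.2 ± 7.21 CPM with EtOH and 69.9 ± 7.82 CPM with saline in C57BL/6J. The other short forms, summed after their values were seen and therefore not tested, were at 7.54 to 16.4 CPM (median 9.43) with EtOH in DBA/2J, against 9.50 to 18.0 CPM (median 14.0) with saline. In C57BL/6J they were at 5.63 to 15.8 CPM (median 10.2) with EtOH, against 8.99 to 15.5 CPM (median 10.4) with saline. The ranges overlapped in both strains.

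The conditioning comparison asked how the genes differed between FC and noFC animals. None of the 6 was called, and edgeR called 0% of all genes in either strain, with 3.35% (DBA/2J) and 3.94% (C57BL/6J) at an unadjusted p under 0.05. DESeq2 called 6 genes in C57BL/6J, none of them among the 6 described here. At an unadjusted p under 0.05 Npas4 passed in C57BL/6J, the one member to do so in either strain.

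In DBA/2J, Npas4 was at 18.7 to 30.1 CPM (median 24.6) in FC libraries, against 17.7 to 29.4 CPM (median 22.8) in noFC libraries, a difference of 0.07 (SE 0.07, adjusted p = 1). In C57BL/6J it was at 14.3 to 22.2 CPM (median 17.6) in FC libraries, against 12.1 to 19.1 CPM (median 15.6) in noFC libraries. The difference there was 0.18 (SE 0.07, adjusted p = 1), with 12 of 15 FC libraries above the noFC median. The difference between the strains in this response, -0.11 (95% confidence interval -0.30 to 0.08), was not called. In DBA/2J the value was 0.14 in the first round and 0.00 in the second, and in C57BL/6J it was 0.11 in the first and 0.24 in the second.

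The highest Npas4 mean of the C57BL/6J groups was that of conditioned animals given saline, 19.7 ± 2.04 CPM (SD, n = 7), followed by unconditioned ones given saline with 16.6 ± 2.25 (n = 8), conditioned ones given EtOH with 16.2 ± 1.50 (n = 8) and unconditioned ones given EtOH with 14.8 ± 1.68 (n = 8). The ranges of mean ± SD of all neighbours in this order overlapped. The test of whether ethanol acted differently in FC and noFC gave 0.04 (SE 0.13, adjusted p = 0.98) in DBA/2J and -0.11 (SE 0.14, adjusted p = 1) in C57BL/6J.

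Bdnf differed between FC and noFC by 0.02 (SE 0.07) in DBA/2J and -0.10 (SE 0.07) in C57BL/6J. Homer1 was at 0.02 (SE 0.08) in each strain, and Inhba at -0.01 in DBA/2J and -0.07 in C57BL/6J (SE 0.09 each). Nptx2 was at -0.09 in DBA/2J and -0.03 in C57BL/6J (SE 0.06 each), and Ntrk2 at 0.05 in DBA/2J and 0.02 in C57BL/6J (SE 0.03 each). None of the 16 transcripts was called for conditioning, beside 0% of all transcripts. Homer1a differed by 0.02 (SE 0.15) in DBA/2J and 0.07 (SE 0.15) in C57BL/6J. The other short Homer1 forms were at 7.54 to 17.4 CPM (median 14.0) in FC libraries of DBA/2J, against 8.55 to 18.0 CPM (median 9.98) in noFC libraries. In C57BL/6J they were at 7.54 to 15.8 CPM (median 11.4) in FC libraries, against 5.63 to 12.2 CPM (median 9.75) in noFC libraries. The medians were higher with FC in both strains while the ranges overlapped, and no test was made.

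Conditioning values were also set against sex. Nptx2 had the smallest p of the 6 for the difference between males and females in the response to conditioning. In males it was at 27.8 to 46.6 CPM (median 38.9) with FC, against 36.9 to 53.7 CPM (median 44.1) with noFC. In females it was at 37.9 to 57.7 CPM (median 45.3) with FC, against 30.6 to 54.5 CPM (median 43.8) with noFC. Conditioned males had the lowest mean of the 4 groups in both strains, 38.5 ± 4.44 CPM in DBA/2J (SD, n = 8) and 36.5 ± 5.09 CPM in C57BL/6J (SD, n = 7).

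The difference of the responses, male minus female, was -0.34 (SE 0.09) for Nptx2. It was not called by edgeR (adjusted p = 0.099) and was called by DESeq2 (adjusted p = 0.042). It was -0.38 in the first round and -0.29 in the second, called in neither. Without library B6_M_noFC_EtOH_310 it was -0.35 (adjusted p = 0.046), and without library DBA_M_noFC_EtOH_312 it was -0.35 (adjusted p = 0.045). Bdnf was at -0.21 (SE 0.10, adjusted p = 0.22), and the other 4 genes between -0.15 and 0.05. In this contrast edgeR called 0% of genes, DESeq2 called 237 genes, and 18.4% had an unadjusted p under 0.05.

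Tissue markers moved with the same contrast. Of 12 pyramidal markers 11 had negative values (median -0.28), as had 8 of 8 dentate markers (median -0.24), while 10 of 10 choroid plexus markers were positive (median 1.59) and none of these 30 was called. The summed pyramidal markers were at 1006 to 1636 CPM (median 1448) in conditioned males, 1264 to 1740 (median 1545) in unconditioned males, 1424 to 1803 (median 1542) in conditioned females and 1186 to 1735 (median 1502) in unconditioned females. With the pyramidal mean as a covariate added after the data had been seen, the Nptx2 value was -0.10 (adjusted p = 1). It was -0.22 with the dentate mean and -0.28 with the choroid plexus mean as the covariate, called with neither. The part of tissue makeup in the value was not tested further.

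**Figure D4:**
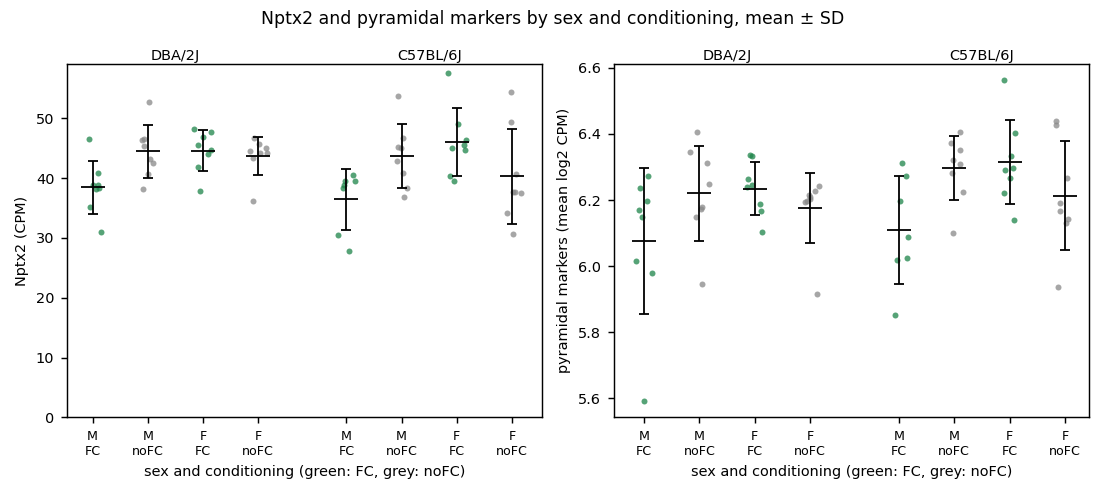
Left, Nptx2 CPM (axis from 0) by sex and conditioning within each strain. Right, mean log2 CPM of 12 pyramidal markers in the same libraries (axis not from 0). Points are libraries (green FC, grey noFC) and bars the mean ± SD. Conditioned males are lowest in both panels and both strains.

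How the 6 genes varied together was described over the 63 libraries after subtraction of each strain's mean from log2 CPM. These correlations share libraries and scaling, carry tissue makeup with them, and are given without a test. Bdnf varied with Inhba (r = 0.71), Homer1 (0.66) and Nptx2 (0.55), and Nptx2 with Inhba (0.54). Homer1 and Nptx2 were nearly unrelated (0.13). Ntrk2 was negative with all 5 others (-0.46 to -0.10). Npas4 stood apart, with values between -0.10 and 0.13. For Bdnf and Inhba r was 0.59 in DBA/2J (n = 32) and 0.82 in C57BL/6J (n = 31), and for Bdnf and Homer1 it was 0.79 in DBA/2J and 0.55 in C57BL/6J.

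**Figure D5:**
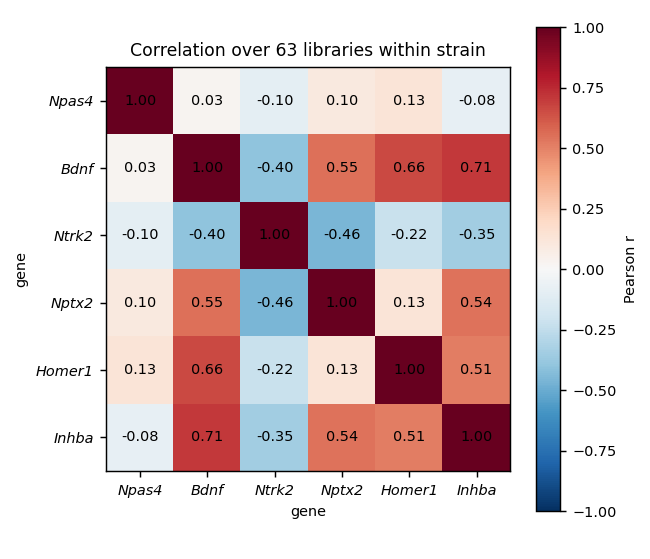
Pearson r between the log2 CPM of the 6 genes over 63 libraries, each centred on its strain's mean (blue negative, red positive). Bdnf, Inhba, Homer1 and Nptx2 share positive values up to 0.71, Ntrk2 is negative with all, and Npas4 is near 0.

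The genes most like each member differed in kind. For Npas4 they were Junb (r = 0.74), Nr4a1 (0.74) and Arc (0.71), all immediate early genes. For Bdnf they included Ndfip2 (0.83) and Calm2, which encodes calmodulin (0.83). For Nptx2 they were Hpca, which encodes the hippocampal calcium sensor hippocalcin (0.90), Actr3b (0.88) and Fam131a (0.87). For Homer1 they were Spred1 (0.85), Nmt2 (0.82) and Neto2 (0.81), for Inhba Skil (0.83), Actr2 (0.80) and Hectd2 (0.80), and for Ntrk2 Abat (0.72), Pygm (0.70) and Slc38a1 (0.70). Nptx2 also followed the mean of the pyramidal markers (0.86), as did Inhba (0.60) and Bdnf (0.49). Homer1 (0.01) and Npas4 (0.01) did not, and Ntrk2 went the opposite way (-0.50). Other tissue markers were related to the genes as well. With the means of meningeal and fibroblast markers and of thalamus markers, Bdnf had -0.57 and -0.53, Nptx2 -0.51 and -0.50, and Ntrk2 0.45 and 0.52. The other members lay between -0.35 and -0.20 with both. With the dentate markers Nptx2 had 0.60, Inhba 0.52, Bdnf 0.32, Npas4 -0.16, Homer1 -0.21 and Ntrk2 -0.40. With the neocortex markers Nptx2 had -0.60, Inhba -0.38, Bdnf -0.20, Npas4 0.15, Homer1 0.20 and Ntrk2 0.34.

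Transcript classes of one gene split in the same description. With the whole Homer1 gene, r was 0.96 for Homer1a, 0.81 for the long forms and 0.52 for the other short forms. Each class is itself part of the gene, which raises these values. Homer1a had 0.41 with Arc, 0.32 with Fos and 0.14 with Npas4. The other short Homer1 forms had 0.74 with Arc, 0.67 with Fos and 0.49 with Npas4, and the long forms -0.01, -0.07 and -0.07. Truncated Ntrk2 was at -0.58 with Bdnf and full-length Ntrk2 at 0.34. Arc and Fos were chosen for this comparison after values had been seen.

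Other genes of the same pathways were counted from lists. The counts of called genes stand beside 50% called over all genes tested (25.5% higher and 24.5% lower), and nothing particular to a list is read from them. For strain, 11 of 25 genes of BDNF and TrkB signalling were called. Of these, DBA/2J had higher levels of 7 and lower levels of 4 (list median 0.03, against 0.01 over all genes). Plat, which encodes tissue plasminogen activator, was at -0.41 (SE 0.03), and Furin, a protease of proBDNF, at 0.13 (SE 0.03). Ptprf, a receptor phosphatase, was at 0.41 (SE 0.04) and Dusp4, a MAP kinase phosphatase, at -0.15 (SE 0.04). Of 12 partners and reported targets of NPAS4, 4 were higher and 4 lower (median 0.00). Its dimer partner Arnt2 was at -0.23 (SE 0.03), opposite in sign to Npas4, while the target list included Kcna1 at -0.18 (SE 0.04), Nrp1 at -0.12 (SE 0.03) and Rgs2 at 0.15 (SE 0.04).

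Of 17 Homer family members and partners, 5 were higher and 3 lower in DBA/2J (median -0.02). Homer2, a paralog of the scaffold, was at 0.13 (SE 0.03), the IP3 receptor gene Itpr1 at -0.26 (SE 0.03) and Dnm3, a dynamin that binds Homer, at 0.26 (SE 0.04). Of 17 tested activin signalling genes (of 18 listed), 6 were higher and 4 lower (median 0.06). Inhbb, the other activin beta subunit gene, was at 0.42 (SE 0.06) and Fst, the secreted activin antagonist follistatin, at 0.66 (SE 0.08), so that ligand subunit and antagonist genes were both higher. Tdgf1, which averaged only 0.47 CPM, was at -1.61 (SE 0.15) and the signal transducer Smad3 at -0.17 (SE 0.03).

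Of 10 genes of pentraxins and AMPA receptor clustering, 2 were higher and 4 lower (median 0.02). Nptx1, the paralog of Nptx2, was at -0.19 (SE 0.04), Adam17, a sheddase, at 0.29 (SE 0.03) and Acan, a proteoglycan of perineuronal nets, at -0.42 (SE 0.07). Of 20 further late activity-regulated genes, 4 were higher and 4 lower (median 0.02). Ptgs2, which encodes cyclooxygenase 2, was at -0.91 (SE 0.06), Nrn1 (neuritin) at -0.14 (SE 0.03), Acvr1c, an activin receptor, at -0.18 (SE 0.05) and Rheb, an activator of mTORC1, at 0.16 (SE 0.02). All genes named from these lists had an adjusted p of 0.0034 or less. For ethanol and for conditioning, none of the genes in these 6 lists was called in either strain.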

How the data were processed

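RNA of 63 dorsal hippocampus libraries (TruSeq stranded poly(A) libraries, single reads, per the labels' protocols) was measured as counts. The authors deposited whole-number read counts for 55401 genes and estimated counts for 117135 transcripts. The submitters' processing notes name Salmon, featureCounts, HISAT2, DESeq2, fastp and the GRCm38 build, without versions or roles. The strand setting of the counting is not given in the sources used here, so reads of genes on opposite strands that overlap may be mixed.

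Columns were matched to labels by title. Scaling was by TMM. Genes too low to test were dropped by filterByExpr at a minimum of 10 counts, and contrasts were tested with edgeR 4.0.16 in R 4.3.3. The quasi-likelihood fit had one coefficient per group, tests were two-sided, and the Benjamini-Hochberg adjustment covered all 19974 genes that were tested. Estimated counts were rounded to whole numbers and kept with at least 10 counts in 3 libraries and 5% of the gene's counts. Their levels were tested with edgeR (34150 transcripts) and their usage with voom and diffSplice in limma 3.58.1 (26680 transcripts). Log2 CPM used a prior count of 2. On simulated gene counts 78.9% of log2 changes of 0.5 were recovered for ethanol in C57BL/6J and 89% for strain. Changes smaller than 0.5 were not simulated. Recovery at the smaller sizes seen for ethanol and conditioning is therefore not known. The most alike pair of libraries within a group still differed by 3.61 times counting noise (chi-square per degree of freedom), so none was treated as a repeat of another.

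The members and lists were chosen with earlier results of these data known. Named genes were the 6 members, their transcripts that passed the filters, up to 4 called genes per list with the smallest p, and the 3 genes with the highest correlation to each member; some genes that this rule names are not reported here. Alternatives used sums of transcript counts, no filter, another scaling, DESeq2 1.42.0, each strain or round alone, marker covariates, the title number as a block, and each library left out in turn.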

Additional observations from a re-analysis of the deposited data

Results flagged for a closer look

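Each gene was looked at in every group of 4 libraries, 90 sets in all. In 4 of the 90 sets 1 library stood far from the other 3 by Dixon's criterion, where chance gives 5% of sets. The sets are not independent, since the genes share libraries. In unconditioned DBA/2J males given EtOH, library DBA_M_noFC_EtOH_324 was high for Bdnf, at 56.6 CPM against 39.6 to 41.4 CPM in the others. The same library was high for Inhba, at 18.4 CPM against 10.1 to 10.7 CPM. In conditioned DBA/2J males given saline, library DBA_M_FC_SAL_312 had 46.6 CPM of Nptx2 against 38.3 to 38.9 CPM. In unconditioned C57BL/6J males given EtOH, library B6_M_noFC_EtOH_310 had 184 CPM of Homer1 against 121 to 128 CPM.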

How the results depend on the processing

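Strain differences of Npas4, Bdnf, Inhba and Ntrk2 kept their direction and call under all 10 alternatives and without any of the 63 libraries left out in turn. Their ranges over the 63 were 0.49 to 0.52 for Npas4, -0.36 to -0.32 for Bdnf, 0.31 to 0.36 for Inhba and -0.094 to -0.081 for Ntrk2. The Homer1 difference held without each library (0.15 to 0.19) but was not called in the first round alone (0.14) or with the dentate markers as a covariate (0.03). Nptx2 was called for strain with the dentate markers (0.24) and with the pyramidal markers (0.11) as a covariate. That last covariate, and the removal together of the libraries with an outlying value, were added after the data had been seen. Fits without one library kept the dispersion trend of the full fit. The causes of the changes given here were not tested.

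Of the transcripts, Homer1-204 (0.27 and 0.39), Homer1-207 (0.17 and 0.22), Npas4-202 (0.39 and 0.58) and Bdnf-201 (-0.40 and -0.68) were not called for strain in the first and the second round alone, nor Ntrk2-201 (-0.10) in the first. Without the minimum share, the usage of Homer1-204 (0.28) and the levels of Homer1-207 (0.19) and Npas4-202 (0.48) lost their calls, and Npas4-202 lost its call in 19 of the 63 fits without one library. Bdnf-210, uncalled at -0.08, was at 1.41 in the first round and at -0.41 to 0.95 without one library.

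Small uncalled values changed sign. In the second round alone, conditioning in DBA/2J was at -0.038 for Bdnf, -0.034 for Homer1, -0.034 for Homer1-204, 0.030 for Inhba and -0.0028 for Npas4, and in C57BL/6J at -7e-04 for Homer1. In that round ethanol in DBA/2J was at 0.0064 for Bdnf, 0.071 for Nptx2 and -0.027 for Ntrk2, and conditioning by sex at -0.010 for Npas4. With the dentate covariate, conditioning was at -0.0048 for Homer1 and 0.034 for Inhba in DBA/2J and at -0.010 for Homer1 and 0.015 for Nptx2 in C57BL/6J, conditioning by sex at 0.023 for Inhba and -0.013 for Npas4, and ethanol in DBA/2J at 0.013 for Nptx2. With the pyramidal covariate, conditioning was at 0.023 for Inhba in DBA/2J and 0.015 for Nptx2 in C57BL/6J, conditioning by sex at 0.076 for Inhba and -0.019 for Ntrk2, and ethanol in DBA/2J at 0.046 for Nptx2. Conditioning of Inhba in DBA/2J was at 0.011 with the choroid plexus covariate and 0.028 without the outlying libraries. Ethanol in DBA/2J for Nptx2 was at 7e-04 with DESeq2, 3e-04 with DESeq2's size factors, 0.0090 with sums of transcript counts, 1e-04 with no filter and 0.012 without the outlying libraries.

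Without one library, conditioning in DBA/2J ranged over -0.015 to 0.056 for Bdnf, -0.014 to 0.059 for Homer1, -0.037 to 0.087 for Homer1-204 and -0.072 to 0.049 for Inhba. In C57BL/6J it ranged over -0.015 to 0.061 for Homer1 and -0.062 to 0.010 for Nptx2. Ethanol in DBA/2J ranged over -0.025 to 0.017 for Nptx2, and conditioning by sex over -0.0061 to 0.064 for Npas4.

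The number of all genes called moved more than the values. For ethanol in DBA/2J it was 59, against 15 in the second round alone, 107 with DESeq2, 33 with no filter, 27 with each strain fitted alone and 42 to 84 without one library. For ethanol in C57BL/6J it was 18, against 0 in the first round, 1 in the second and 10 to 20 without one library. For conditioning in C57BL/6J it was 0, against 6 with DESeq2, 1 with the dentate covariate, 2 with the pyramidal one, 2 with the choroid plexus one, 1 without the outlying libraries, 1 with each strain alone and 0 to 4 without one library. For conditioning in DBA/2J it was 0 to 1 without one library, and for conditioning by sex, where edgeR called 0, it was 237 with DESeq2 and 0 to 297 without one library.

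Each title number recurs across the drug and conditioning groups of a single strain and sex, as a block would. A fit with the number as a replicate block was therefore made for the drug and conditioning contrasts. For ethanol in DBA/2J it called 109 genes, against 59 without the block. For the ethanol difference between strains it called 4, against 2 without the block and 0 to 5 without one library. No call of the 6 genes changed. Deviations of same-numbered libraries had a mean r of 0.113 (-0.628 to 0.637), with 55 of 93 pairs over 0.1, against a mean of -0.037 and 87 of 279 pairs for other numbers. Of 63 libraries 32 correlated best with their own number. The number to be expected if numbers carried no tie was not computed. The labels do not say what a number marks, and the main fit did not pair samples by it. Single pairs vary widely, so pairs under 0.1 cannot show that the numbers carry no tie. Strain and sex differences could not be fitted with the block, so their p-values treat same-numbered libraries as independent, which is not known. If same-numbered libraries are alike, those p-values are too small. Transcripts with at least 10 counts in fewer than 3 libraries, or under 5% of their gene's counts, were not tested.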
